A study of Sus scrofa with 23 samples.

Results

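The step from the 8-cell stage to the morula was followed in cloned pig embryos of 2 groups, NT-D and NT-LW, through 4 of the 23 libraries of the series. The members were the genes that changed the same way in both groups, 1264 that rose and 372 that fell, together with 209 late-activated genes that reached expression at the morula and at no earlier clone stage. NT-D embryos were made by nuclear transfer from a Duroc cell line and NT-LW embryos from a Laiwu cell line, Laiwu being a Chinese breed. Each line came from ear fibroblasts of 1 boar, so line, boar and breed cannot be told apart. Both groups received the nuclei in oocytes matured in vitro and grew in culture in PZM3 medium. The other group, IV-D, held Duroc embryos fertilized in vivo and flushed from sows, sired by the boar of the Duroc line; it was used for comparison, and cloning, culture, oocyte maturation, breed of the oocytes (hybrid sows for the clones, Duroc sows for IV-D) and sex (male clones, mixed IV-D pools) cannot be told apart between it and the clones. Each condition was 1 library made from a pool of embryos, so no value has an error, no p between conditions exists, and intervals cover counting error only.

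The deposited table gives FPKM, fragments scaled to the length of the gene and to the depth of the library, for 8603 genes, 7371 of them with a symbol. Its label calls them DEG genes, the study's term for differentially expressed genes. Counts and shares of genes, also those of all genes, are within that table and not over the genome. The 8-cell and morula libraries of the 3 groups held 16360158 to 21077697 fragments. A gene rose or fell if its log2(FPKM + 1) moved by over 1 from one stage to the next and its FPKM was at least 1 in the higher library, a rule of size and not a test. Where no fragment was counted, up to 3 may have been missed, equal to an FPKM of 0.142 to 0.183 for a gene 1 kb long. Differences below are of log2(FPKM + 1), morula minus 8-cell, which understates the change of genes with low values. The 3 groups shared no library at these stages.

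At the morula stage the blastomeres of a mammalian embryo flatten against each other, a process called compaction, and the outer cells become polar. They then form the trophectoderm, the first epithelium, which makes the placenta, while the inner cells become the inner cell mass. In pigs the embryonic genome is activated in the cleavage stages before this, as the transcripts stored in the oocyte are removed. In clones the genome to be activated is that of a fibroblast. Adhesion proteins, keratins and channels serve the new epithelium, which draws in the fluid of the blastocoel.

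In NT-D embryos 2521 genes rose and 953 fell (31.6% and 12.0% of 7968 compared), and in NT-LW embryos 1729 rose and 958 fell (22.4% and 12.4% of 7708). Both groups shared 1264 risers (16.7% of the 7584 genes compared in both) and 372 fallers (4.91%). The shared risers were 50.1% of NT-D risers and 73.1% of NT-LW risers, and the shared fallers 39.0% and 38.8% of the fallers of each group. Another 1143 genes rose in NT-D alone and 443 in NT-LW alone, while 559 and 472 fell in 1 group alone. Opposite directions were found for 136 genes (1.79%), and 5591 of the 7584 (73.7%) had the same sign whatever their size. Of the shared risers, 167 had a smaller change of 1 to 1.1 and 170 further genes lay between 0.9 and 1, just outside the rule. For fallers these numbers were 74 and 89.

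The scale of the libraries bears on these counts. The median difference of all genes compared was 0.45 in NT-D, 0.19 in NT-LW and -0.03 in IV-D embryos. Median-ratio scaling brought it to 0.03, 0.01 and 0.03, and the shared risers then numbered 861, all among the 1264, and the shared fallers 598, which held all 372. Risers then made up 51.3% of the changed genes in NT-D and 53.3% in NT-LW, against 72.6% and 64.3% on the deposited scale. A list or gene is therefore read below against the median of all genes of its group.

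**Figure D1:**
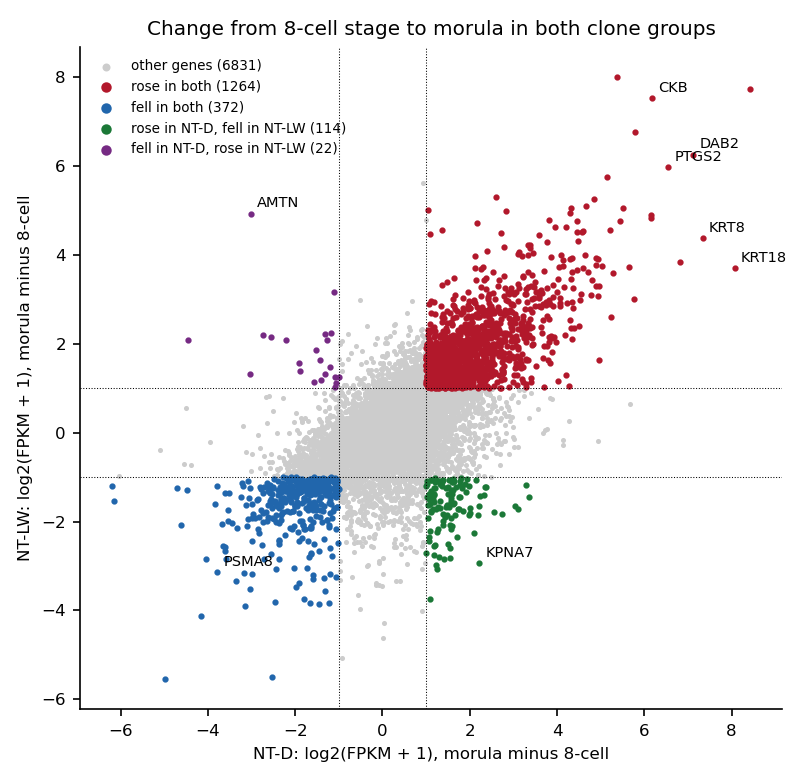
Difference of log2(FPKM + 1), morula minus 8-cell, of each of 8603 genes in NT-D embryos (x axis) and NT-LW embryos (y axis), with dotted lines at the limits of the rule. Each point is 1 gene from 1 library per stage and group, so no error is drawn; the 1264 shared risers fill the upper right and the 372 shared fallers the lower left, and 114 genes at the lower right rose in NT-D and fell in NT-LW.

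The NT-D morula library stood apart in its oocyte transcripts. Among 20 transcripts typical of oocytes, such as zona pellucida and maternal-effect genes, the summed FPKM in the NT-D library was 891 at the 8-cell stage and 899 at the morula. In the NT-LW library it went from 1209 to 158, and in IV-D from 177 to 40.9, against 19973 in the oocytes that received the nuclei. In NT-D 7 of these genes rose and 3 fell, with a median of 0.64. In NT-LW 1 rose and 14 fell (median -2.26), and in IV-D none rose and 6 fell (median -0.93). In both clone groups 3 fell and none rose, and no member was at 0 in any of the 6 libraries. KPNA7, an oocyte importin, went from 9.64 to 48.4 FPKM in NT-D and from 22.3 to 2.06 in NT-LW. The NT-D morula library also had the most genes at FPKM of at least 1, 7738, against 6902 to 7183 in the other 5 libraries of these stages. In pools of whole embryos, fewer cells with a transcript and less of it per cell cannot be told apart, nor can the loss of a transcript and its dilution by others. The part of these transcripts in the results was not tested. Without the genes of FPKM 10 or more in the recipient oocytes, which were 39.4% of all genes, the shared risers numbered 968 of 1264 and the shared fallers 154 of 372.

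Markers of the donor cells were read in all 3 groups. Of 10 fibroblast genes in the table, none rose and 2 fell in both groups, and the summed FPKM went from 96.3 to 18.0 in NT-D and from 88.6 to 29.9 in NT-LW, against 37.6 and 8.14 in IV-D. The sums were carried mainly by CCN2 and S100A4, and the median FPKM over the 10 markers went from 1.32 to 1.21 in NT-D, from 1.60 to 0.489 in NT-LW and from 0.283 to 0.0351 in IV-D. No marker was at 0 in the clone libraries, and 2 were in the IV-D 8-cell and 3 in the IV-D morula library. S100A4, a calcium-binding protein of fibroblasts, had FPKM 23.0 and 18.7 in the 8-cell clones, 1.76 and 5.42 in their morulae and no fragment in the IV-D libraries of these stages. In the 1-cell libraries it had 63.9 in NT-D, 76.1 in NT-LW and also 39.9 in IV-D, which received no donor cell. CCN2, a matrix protein and a target of YAP1, fell from 62.7 to 7.76 in NT-D, from 56.2 to 19.4 in NT-LW and from 33.5 to 5.16 in IV-D embryos. The table holds 6 genes of cumulus cells, the somatic cells around an oocyte, of which none rose and 1, NR5A2, fell in both groups. The summed FPKM of the 6 was 50.1 and 48.7 in NT-D, 61.9 and 35.6 in NT-LW, and 37.1 and 31.9 in IV-D libraries. NR5A2 had FPKM 0 in the recipient oocytes and 4.89, 7.98 and 4.46 in the NT-D, NT-LW and IV-D 4-cell libraries. In IV-D it fell from 9.47 to 2.87, and whether it came from cumulus cells was not tested.

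Among the genes that rose most in both clone groups were an endocytic receptor and its partners. DAB2, an adaptor that links receptors to clathrin, went from FPKM 0.418 in 8-cell embryos to 196 in morulae in NT-D, from 0.657 to 126 in NT-LW and from 2.997 to 114 in IV-D. These are 469-fold, 192-fold and 37.9-fold increases. LRP2, or megalin, the large endocytic receptor that DAB2 binds, went from 4.75 to 115, from 1.77 to 91.1 and from 32.8 to 163 in the same order of groups. LRPAP1, the chaperone of this receptor family, went from 10.6 to 292, from 4.87 to 199.7 and from 36.6 to 330.5. For all 3 genes the clone 8-cell libraries were below the IV-D 8-cell library, and the 3 morula libraries lay within 2-fold of each other. The 3 were chosen by their shared rises, and the IV-D 8-cell value was above both clones for 82.8% of all shared risers. The order at the 8-cell stage was thus in part set by the choice.

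CKB and ASS1 of this list and ARG1, named for its distance from IV-D, act in energy and arginine metabolism. CKB, the brain-type creatine kinase, which buffers ATP, had FPKM 24.8, 7.89 and 504 in NT-D, NT-LW and IV-D 8-cell embryos and 1877, 1642 and 1708 in the morulae. Its clone 8-cell values were far below that of IV-D, an order in part set by the choice of shared risers, and the 3 morula values were close. ASS1, which makes argininosuccinate in the synthesis of arginine, went from 1.07 to 146 in NT-D, from 0.770 to 51.8 in NT-LW and from 38.1 to 209 in IV-D. ARG1, the arginase that splits arginine to ornithine and urea, went from 13.1 to 197 and from 14.3 to 420.1 in the clones, where IV-D embryos had 309 and 354 already and did not pass the rule.

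Signalling genes and genes of acid compartments were also high in the list. PTGS2, the inducible cyclooxygenase of prostaglandin synthesis, went from 0.0653 to 98.5 FPKM in NT-D, from 0.0881 to 67.8 in NT-LW and from 1.20 to 38.0 in IV-D. The 8-cell values of the clones rest on 7 and 8 fragments, and the fold was 1507 (95% exact interval 731 to 3749) and 770.0 (391 to 1784). The cytokine IL6 went from 1.73 to 58.8, from 1.57 to 69.2 and from 9.84 to 136. ATP6V0D2, a subunit of the proton pump of lysosomes, went from 5.07 to 216, from 5.00 to 322 and from 191 to 491, and here the clone morulae stayed below that of IV-D. CTSD, a protease of lysosomes, reached 28.5, 27.4 and 20.1 FPKM from under 1 in each group. NUPR1, a small nuclear protein induced by stress, reached 100.4 and 31.6 in the clone morulae from 0.417 and 0.140, and 4.47 from 1.79 in IV-D, where the difference of 0.97 did not pass the rule. It was high later in IV-D as well. In the blastocyst part of trophectoderm alone it had 1537 in NT-D, 570 in NT-LW and 1042 in IV-D. In the part that also holds the inner cell mass it had 1877, 1424 and 21.5.

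The keratin pair KRT8 and KRT18, which form the filaments of simple epithelia and of the trophectoderm, was at or near 0 in the clone 8-cell libraries. KRT8 had no fragment in either clone 8-cell library and FPKM 161 in the NT-D and 19.8 in the NT-LW morula, which is at least 3765-fold and at least 393-fold higher when 3 fragments are taken as the limit of each library. In IV-D it went from 0.0803 to 142. KRT18 went from 0 to 269 in NT-D (at least 5096-fold), from 0.187 to 14.5 in NT-LW (77.5-fold, 95% exact interval 40.6 to 170.2) and from 2.21 to 199.9 in IV-D. The NT-LW morula had lower values of both keratins than the other morulae, and in the NT-LW blastocyst part of trophectoderm alone (TE) KRT8 reached 1033 and KRT18 1593, against 735 and 917 in NT-D and 549 and 582 in IV-D. The other 4 of the 15 genes with the largest shared rises were BEST2, a bestrophin chloride channel, GCNT1, an enzyme that branches O-glycans, PDLIM1, an adaptor bound to actin, and MREG, a protein of vesicle transport. The smaller of their clone differences were 5.06, 4.53, 4.46 and 4.31.

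**Figure D2:**
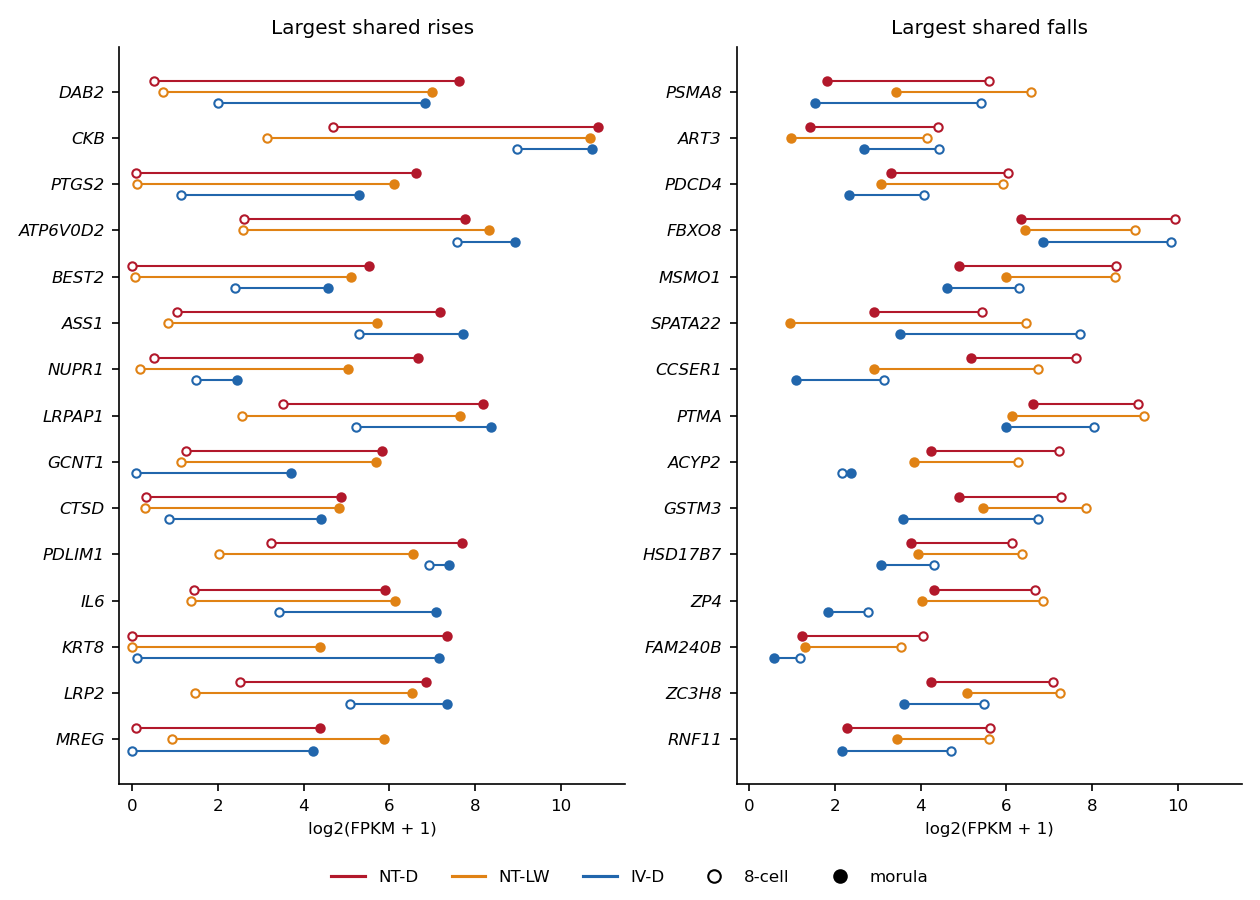
log2(FPKM + 1) at the 8-cell stage (open circles) and at the morula (filled circles) in the 2 clone groups and IV-D, for the 15 genes with the largest shared rises (left) and the 15 with the largest shared falls (right), ranked by the smaller of the clone differences. Each circle is 1 library, with no error; for CKB, ATP6V0D2 and PDLIM1 the IV-D 8-cell circle lies far to the right of both clone circles, and for KRT8 all 8-cell circles lie at or near 0.

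The promoters of the 4 highest-ranked risers with a placed start site are shown because these genes moved together, and those of the keratin pair were added after their values were seen. They run from 250 bases before the start of the gene in the RefSeq annotation of Sscrofa11.1 through its first 50 bases, 5′ to 3′ on the strand of the gene, and capitals mark matches on either strand to the letters TATAAA of the TATA box, CCAAT of the box bound by NF-Y, GGGCGG of SP and KLF factors, GGAATG of TEAD factors, GCCNNNGGC of TFAP2 factors, AGATAA of GATA factors or TGANTCA of AP-1. The windows are chr16:24776888-24777187, chr9:127858817-127859116, chr4:50749324-50749623, chr2:66248859-66249158 and chr5:18180228-18180527 on the minus strand and chr5:18217436-18217735 on the plus strand. In the same order, the genes span chr16:24590638-24776937, chr9:127850164-127858866, chr4:50694188-50749373, chr2:66242820-66248908, chr5:18172423-18180277 and chr5:18217686-18221432.
DAB2: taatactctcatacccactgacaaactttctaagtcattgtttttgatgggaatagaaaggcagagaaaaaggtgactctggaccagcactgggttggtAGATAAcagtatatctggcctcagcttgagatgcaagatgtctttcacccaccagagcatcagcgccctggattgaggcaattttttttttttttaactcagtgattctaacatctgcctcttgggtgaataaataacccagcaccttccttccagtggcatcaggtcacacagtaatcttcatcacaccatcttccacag
PTGS2: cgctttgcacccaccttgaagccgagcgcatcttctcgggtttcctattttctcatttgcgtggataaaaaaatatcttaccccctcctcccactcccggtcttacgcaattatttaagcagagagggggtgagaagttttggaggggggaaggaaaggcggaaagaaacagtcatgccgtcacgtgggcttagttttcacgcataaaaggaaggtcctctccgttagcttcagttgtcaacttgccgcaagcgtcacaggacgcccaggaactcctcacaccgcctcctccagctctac
ATP6V0D2: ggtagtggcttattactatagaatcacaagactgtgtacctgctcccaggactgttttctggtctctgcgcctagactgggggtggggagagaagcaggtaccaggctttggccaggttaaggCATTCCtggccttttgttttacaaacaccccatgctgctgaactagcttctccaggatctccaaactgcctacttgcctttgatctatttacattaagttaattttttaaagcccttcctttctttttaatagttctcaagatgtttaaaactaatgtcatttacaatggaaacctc
BEST2: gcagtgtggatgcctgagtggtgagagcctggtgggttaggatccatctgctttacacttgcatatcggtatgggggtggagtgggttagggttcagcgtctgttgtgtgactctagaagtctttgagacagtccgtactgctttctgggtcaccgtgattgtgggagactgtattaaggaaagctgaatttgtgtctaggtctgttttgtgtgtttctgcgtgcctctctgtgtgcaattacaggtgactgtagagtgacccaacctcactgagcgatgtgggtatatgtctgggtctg
KRT8: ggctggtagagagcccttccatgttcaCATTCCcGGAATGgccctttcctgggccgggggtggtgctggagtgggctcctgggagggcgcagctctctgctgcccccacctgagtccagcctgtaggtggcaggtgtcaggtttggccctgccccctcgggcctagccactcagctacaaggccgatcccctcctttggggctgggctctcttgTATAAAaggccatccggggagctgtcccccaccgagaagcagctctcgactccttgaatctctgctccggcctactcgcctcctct
KRT18: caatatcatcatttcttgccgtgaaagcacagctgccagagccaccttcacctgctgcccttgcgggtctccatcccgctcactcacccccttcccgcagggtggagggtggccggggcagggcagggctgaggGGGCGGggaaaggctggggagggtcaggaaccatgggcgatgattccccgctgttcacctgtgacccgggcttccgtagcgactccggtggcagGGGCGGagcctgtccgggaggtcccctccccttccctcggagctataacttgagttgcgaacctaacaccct

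DAB2 holds 1 match to AGATAA, ATP6V0D2 1 to GGAATG read on the other strand, KRT8 2 to GGAATG, 1 on each strand, and 1 to TATAAA, KRT18 2 to GGGCGG, and PTGS2 and BEST2 none of the 7. Over the sets, GGGCGG occurred in 68.1% of the 1024 promoters of shared risers, 59.3% of the 248 of shared fallers, 69.6% of the 168 of late-activated genes and 63.2% of the 6811 of all genes of the table. GCCNNNGGC occurred in 32.5%, 25.0%, 37.5% and 28.5%, and the median GC content was 63.0%, 58.7%, 65.2% and 61.3%. GGAATG occurred in 10.7%, 14.9%, 11.9% and 10.9%, and AGATAA in 6.15%, 7.66%, 7.14% and 7.75%. Over all 19506 promoters of protein-coding genes of the annotation the shares were 50.6% for GGGCGG, 26.2% for GCCNNNGGC, 11.8% for GGAATG and 9.18% for AGATAA. The motifs GGGCGG and GCCNNNGGC are rich in G and C and went with the GC content of the set, whose part was not tested. A match says only that the letters are in the window.

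In IV-D embryos 903 genes rose and 994 fell (12.3% and 13.6% of 7330). Of the 1264 shared clone risers 508 (40.2%) also rose in IV-D, 12 fell and 744 did not pass the rule, and the 508 were 56.3% of IV-D risers. Of the 372 shared fallers 205 (55.1%) fell in IV-D, 5 rose and 162 did not pass, and the 205 were 20.6% of IV-D fallers. The median difference of the shared risers was 1.90 in NT-D, 1.74 in NT-LW and 0.80 in IV-D. Their median FPKM was 3.70, 3.85 and 10.2 at the 8-cell stage and 21.5, 17.8 and 19.0 at the morula, so that the medians were apart before the step and close after it. The IV-D 8-cell value was above both clone values for 1047 of them (82.8%, against 44.9% of all genes compared), though the rule itself chose genes that were low in the clone 8-cell libraries. At the morula IV-D was above both clones for 31.8% and below both for 34.8%, against 19.2% and 48.1% of all genes compared.

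For the shared fallers the order was the reverse. Their median difference was -1.82 in NT-D, -1.41 in NT-LW and -1.13 in IV-D, and their median FPKM was 41.7, 39.0 and 22.1 at the 8-cell stage and 8.35, 12.2 and 6.29 at the morula. The IV-D 8-cell value was below both clone values for 81.2% of them, against 40.4% of all genes compared, where the rule chose genes that were high in the clone 8-cell libraries. The fallers were present at earlier stages. Their median FPKM was 17.5 in the recipient oocytes and 21.6 and 21.7 in NT-D and NT-LW 4-cell embryos. Of the risers 62.3% and of the fallers 84.1% had FPKM of at least 1 in those oocytes, against 80.3% of all genes compared. Fallers were also shorter, with a median gene length of 2131 bases, against 2713 for risers and 3103 for all genes compared, and the part of gene length was not tested.

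**Figure D3:**
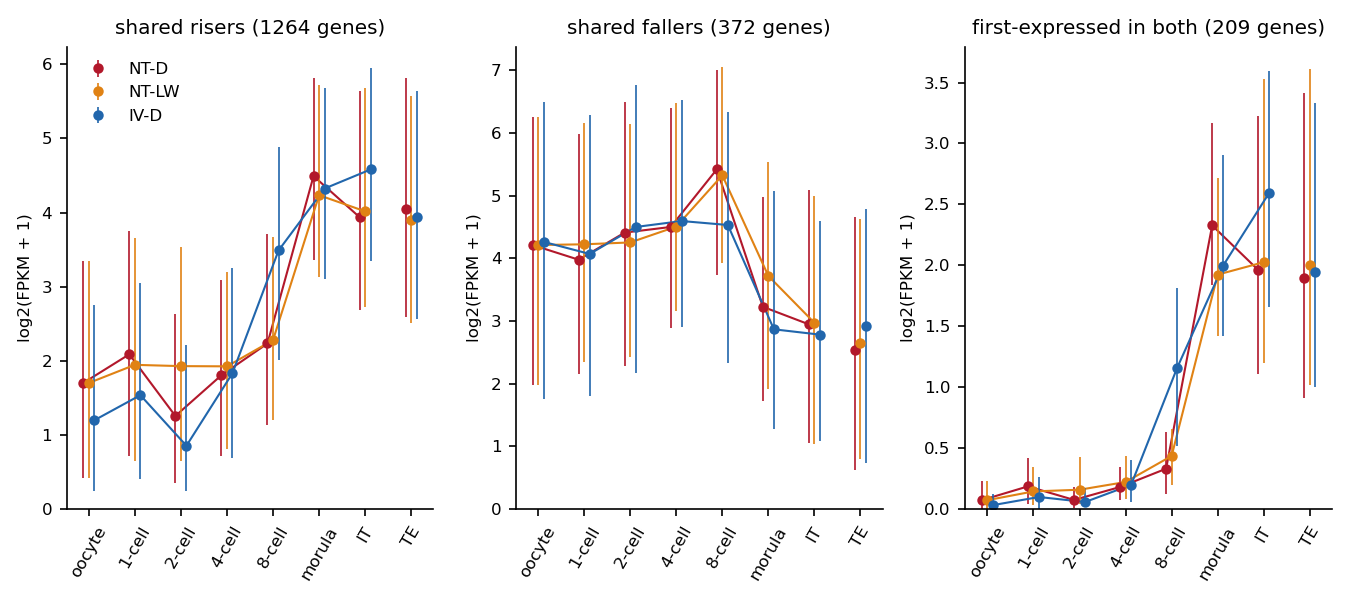
Median log2(FPKM + 1) of the 1264 shared risers, the 372 shared fallers and the 209 late-activated genes by stage, in the 2 clone groups and IV-D, with bars from the lower to the upper quartile over genes; the recipient oocytes serve both clone groups, and IT and TE are parts of the blastocyst. The step from 8-cell to morula was used to choose the genes; IV-D embryos had a median FPKM of 10.2 for the risers at the 8-cell stage, above the 3.70 and 3.85 of the clones.

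The morula level was used to choose the genes, so their later levels are given as a description. The median FPKM of the risers was 14.3 and 15.5 in the NT-D libraries of inner cell mass with trophectoderm (IT) and of TE, and 15.2 and 13.9 in those of NT-LW. That of the fallers was 6.70 and 4.78 in NT-D and 6.84 and 5.30 in NT-LW.

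Some shared risers differed most from IV-D embryos. By distance from the nearer clone difference these were CKB, CYP26A1, PDLIM1, NUPR1, ATP6V0D2, ARG1, UBALD2 and RBPMS. CYP26A1, the enzyme that breaks down retinoic acid, went from 1.37 to 27.6 in NT-D and from 0.457 to 31.0 in NT-LW, while IV-D had 23.9 and 17.8. PDLIM1 went from 8.51 to 208 and from 3.08 to 92.3 in the clones, and IV-D had 120.0 and 166. RBPMS, an RNA-binding protein, went from 2.36 to 67.5 and from 2.52 to 53.1, and IV-D had 21.2 and 27.7. In all 8 the 8-cell level was higher in IV-D than in either clone group, as it was for 82.8% of all shared risers. The 8 were chosen by their distance from IV-D, so this order was in part set by the choice.

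A total of 374 genes (4.35% of the table) were first expressed at the morula in NT-D and 285 (3.31%) in NT-LW, with FPKM over 1 there and under 1 in the recipient oocytes and in the 1-cell to 8-cell libraries of the group. In IV-D 164 genes (1.91%) met the same rule. Both clone groups shared 209 (2.43%), which were 55.9% of the NT-D and 73.3% of the NT-LW genes; both rules read the same oocyte library. Of the 209, 142 also passed the rule of size in both groups, 46 were over 5 FPKM in both morulae and 10 had no fragment in either clone 8-cell library. After rescaling to a common sum 100 of the 209 still met the rule, and under median-ratio scaling 156. The median FPKM of the 209 on the deposited scale was 4.02 in the NT-D and 2.79 in the NT-LW morula, so most were low. In IV-D embryos 122 of them (58.4%) had been over 1 FPKM by the 8-cell stage, 108 of these at that stage for the first time, and 74 (35.4%) first at the morula, which were 45.1% of the IV-D genes. Of the other 13, 10 passed it first in a blastocyst part and 3 in no IV-D library. The 122 genes had a median of 2.27 FPKM in the IV-D 8-cell library, and 17 were over 5 there. Of all 8603 genes of the table, 6952 had FPKM of at least 1 in that library. The rule held the earlier clone libraries under 1 FPKM but not those of IV-D. Earlier passing in IV-D was thus in part set by the choice. The 209 genes were long, with a median of 3869 bases, and 6.51% of those with a position lay on the X chromosome, against 3.64% of all genes compared in both groups, and sex cannot be told apart from group against IV-D.

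Among the late-activated genes with the highest clone morula levels were PTGS2, BEST2, CTSD, MREG, KRT8, DSC2, RHOV, KRT18 and PDK4. DSC2, a cadherin of desmosomes, went from 0.843 to 28.4 FPKM in NT-D and from 0.831 to 15.4 in NT-LW, while the 8-cell library of IV-D already had 36.3 and its morula 75.1. It rose further to 137, 172 and 149 in TE of the groups in the same order. BEST2 had 0 fragments in the NT-D and 1 in the NT-LW 8-cell library and reached 44.9 and 33.7, where IV-D went from 4.28 to 22.9. RHOV, a small GTPase, reached 18.4, 14.8 and 20.1 in the 3 morulae from 0.113, 0.171 and 0 in the 8-cell libraries. BEST2 and DSC2 thus passed 1 FPKM earlier in IV-D embryos than in the clones, and RHOV at the same stage.

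MREG and PDK4 had their highest clone level at the morula. MREG reached 19.9 and 57.5 in the clone morulae and 17.5 in IV-D, and was at 7.16, 2.92 and 5.04 in TE. PDK4, the kinase that turns off pyruvate dehydrogenase, reached 12.5 and 12.5 in the clone morulae, and stood at 1.33 and 9.46 in their IT and 0 and 2.04 in their TE libraries. IV-D 8-cell embryos had none, the IV-D morula 0.587, and it reached at most 2.18 in any IV-D library. The 3 late-activated genes that were over 1 FPKM in no IV-D library included SLITRK2 and CHRNA4, both genes of nerve cells, named here after their values were seen. Their levels in NT-D and NT-LW morulae were low, 3.14 and 1.18, and 1.63 and 1.19 FPKM.

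**Figure D4:**
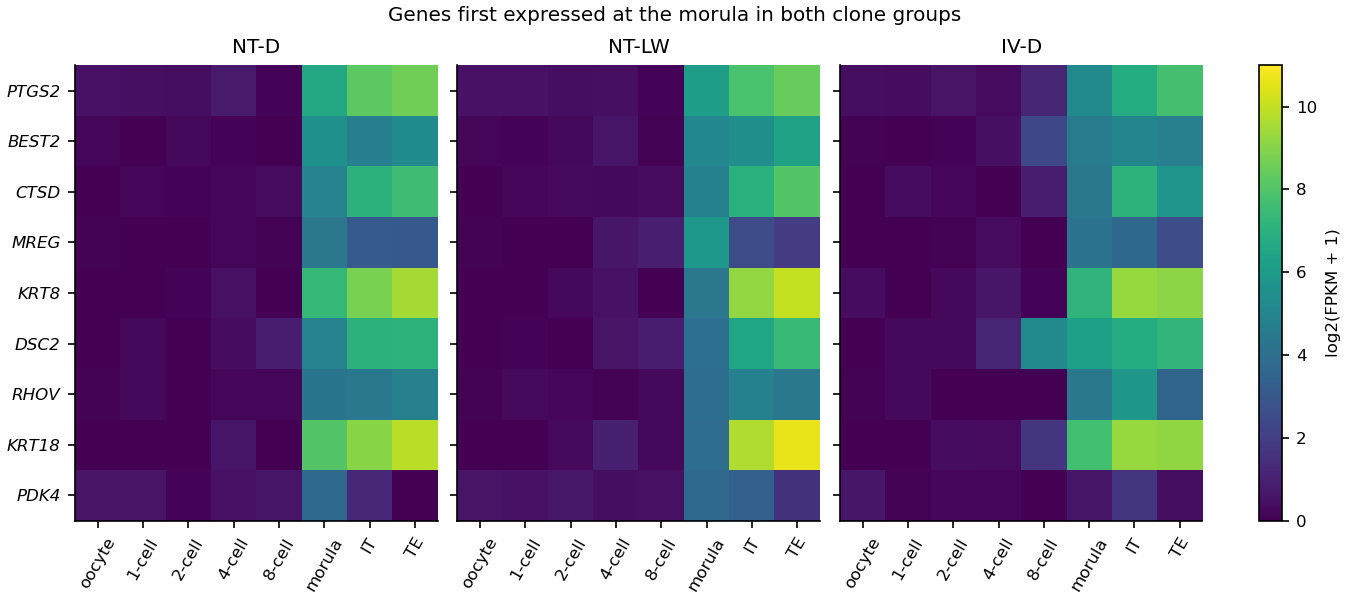
Colour shows log2(FPKM + 1) of 9 late-activated genes (rows) by stage (columns) in the 2 clone groups and IV-D, 1 library per cell of the map; the recipient oocytes are drawn for both clone groups. DSC2 and BEST2 are already brighter in the IV-D 8-cell library, at 36.3 and 4.28 FPKM, and PDK4 is brighter in the clone morulae and in NT-LW IT and stays dark in IV-D embryos, where it reached at most 2.18 FPKM.

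Counts of list members below are read against the 16.7% of all genes that rose and the 4.91% that fell in both groups, and list medians against 0.45 in NT-D, 0.19 in NT-LW and -0.03 in IV-D. Of 16 genes of adherens junctions and desmosomes in the table, 10 rose and none fell in both groups, and their median difference was 1.87 in NT-D, 1.76 in NT-LW and 0.73 in IV-D. CDH1, E-cadherin, was present before the step and went from 12.1 to 35.7 in NT-D and from 18.6 to 43.7 in NT-LW. The latter no longer passed the rule under median-ratio scaling. IV-D embryos had 33.9 and 48.3. The members with the largest shared rises, besides DSC2, were PKP2 and DSG2. PKP2, or plakophilin, went from 0.954 to 21.3 in NT-D and from 0.136 to 9.19 in NT-LW, and DSG2, a desmoglein, from 0.357 to 14.3 and from 0.252 to 8.06. CTNNA1, the catenin that ties cadherins to actin, went from 2.84 to 16.1 and from 2.12 to 12.5, and IV-D had 12.9 and 22.1.

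Of 12 tight junction genes, which seal the epithelium, 6 rose and none fell in both groups (medians 1.09, 1.43 and 0.44 in the order NT-D, NT-LW, IV-D). CLDN4 went from 0.207 to 36.2 in NT-D, from 0.210 to 17.1 in NT-LW and from 3.26 to 57.0 in IV-D, and CLDN6, another claudin, from 1.18 to 109, from 1.23 to 28.7 and from 57.9 to 138. Occludin, OCLN, went from 1.64 to 32.6 and from 2.96 to 22.1 in the clones. Of 15 genes of apical and basal polarity 3 rose and none fell in both groups, MSN, EZR and LLGL2 (medians 0.78, 0.68 and -0.26), a share near the 16.7% of all genes. With a minimum of 5 FPKM the NT-D median was 0.48, close to that of all genes. Ezrin, EZR, which links the apical membrane to actin, went from 8.36 to 117 and from 13.6 to 67.7, and moesin, MSN, its relative, from 0.0925 to 15.3 and from 0.109 to 10.1.

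Of 10 genes of fluid transport 4 rose in both groups (medians 1.62, 1.66 and -0.26). With a minimum of 5 FPKM the NT-D median was 0.26. AQP3, a channel for water and glycerol, had no fragment in either clone 8-cell library and 4.61 and 3.41 FPKM in the morulae, at least 142-fold and at least 88.7-fold higher, and IV-D went from 0.0204 to 9.54. CA2, a carbonic anhydrase, went from 0.842 to 4.81 and from 1.03 to 16.5 in the clones, where IV-D had 31.6 and 28.0.

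Of 18 transcription factors and Hippo pathway genes tied to the trophectoderm, 4 rose and 1 fell in both groups (medians 1.15, 0.42 and 0.50). The share of risers was not far above the 16.7% of all genes. In NT-D 10 of the 17 compared rose and in NT-LW 4 of 15, where 31.6% and 22.4% of all genes did. TEAD4, the factor that starts the trophectoderm programme, went from 3.17 to 19.2 in NT-D and from 1.15 to 14.3 in NT-LW, while IV-D had 14.5 and 16.2. WWTR1, its coactivator TAZ, went from 3.07 to 29.6, from 5.93 to 59.8 and from 15.8 to 46.9, and KLF5 from 7.91 to 56.0, from 7.39 to 54.9 and from 27.1 to 47.9. AMOT, an angiomotin that holds back YAP1, went from 1.64 to 8.73 and from 1.51 to 5.47. GATA3 stayed low in all 3 groups, with morula values of 3.17, 1.59 and 1.497 FPKM, and it changed by 1.06 in NT-D but 0.15 in NT-LW. The NT-D value went to 0.74 under median-ratio scaling. The member that fell was CCN2, given above. Of 10 trophectoderm keratins and products 6 rose and none fell in both groups (medians 3.60, 1.87 and 1.60), among them DAB2, PTGS2, KRT8 and KRT18.

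Of 14 factors of pluripotency and of the inner cell mass 6 rose and 2 fell in both groups (medians 1.13, 1.59 and 1.18). NANOG, a factor of pluripotent cells, fell from 75.7 to 5.55 in NT-D, from 29.8 to 6.75 in NT-LW and from 78.1 to 7.73 in IV-D. KLF4 fell from 84.6 to 25.2 and from 79.3 to 36.1 in the clones, though in NT-LW not under rescaling to a common sum, and IV-D had 61.3 and 42.8. LIN28A, an RNA-binding protein of early cells, went from 1.43 to 46.9, from 3.86 to 27.3 and from 1.26 to 40.8. GATA6, the factor of primitive endoderm, went from 21.6 to 71.4, from 20.7 to 64.3 and from 28.3 to 66.7, with close values in the 3 groups at both stages. TBX3 and OTX2 also rose in both clone groups, TBX3 to 24.2 and 23.7 and OTX2 to 58.0 and 79.5. POU5F1, SOX2, CDX2 and ATP1B1 were not analysed here.

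The actin cytoskeleton, which drives compaction, had 11 of 28 genes that rose and 1 that fell in both groups (medians 1.42, 0.95 and 1.08). ACTG1, cytoplasmic gamma actin, went from 15.5 to 488, from 24.1 to 380.3 and from 36.0 to 653. ACTN1, alpha actinin, which crosslinks filaments, went from 0.155 to 16.4, from 0.252 to 8.10 and from 1.46 to 20.3. Cofilin, CFL1, which severs them, went from 16.8 to 122 and from 14.1 to 70.4 in the clones, while IV-D had 84.8 and 77.4. TPM2, a tropomyosin, fell from 4.76 to 0.849 and from 3.18 to 0.964 and rose from 0.142 to 1.73 in IV-D. Actins, keratins, GAPDH, PTMA and ribosomal proteins have near-identical copies in the genome, and their values are uncertain where reads could be split between copies.

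Glycolysis and glucose uptake had 7 of 13 genes that rose and none that fell in both groups (medians 1.89, 1.20 and 0.56). ENO1, enolase, went from 6.56 to 225 in NT-D and from 5.64 to 64.2 in NT-LW, while IV-D had 112 and 161. ALDOA, aldolase, went from 1.98 to 43.3, from 5.79 to 28.7 and from 6.33 to 23.1, and PGAM1, phosphoglycerate mutase, from 24.1 to 137, from 34.7 to 134 and from 42.3 to 173. Of 57 nuclear genes of oxidative phosphorylation 18 rose and none fell in both groups (medians 0.76, 0.85 and 1.02). NDUFA10 of complex I went from 10.5 to 129.8, from 9.37 to 107 and from 25.9 to 136. ATP5F1A, the alpha subunit of ATP synthase, was among the most abundant, with 207 and 1434, 174 and 1478, and 727 and 1693 FPKM.

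Lysosomal genes and the proton pump had 11 of 25 genes that rose and none that fell in both groups (medians 1.52, 1.12 and 1.23). Besides CTSD these included NPC2, which carries cholesterol out of lysosomes and reached 126 and 97.0, and HEXA, a hexosaminidase, from 3.34 to 21.3 and from 3.64 to 24.5. ATP6V0B, of the pump, went from 65.4 to 318 and from 41.8 to 363 in the clones and from 132 to 327 in IV-D. In this list, as in several others such as the actin and pluripotency lists, the IV-D median lay between those of the clones.

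Lists of translation and of protein breakdown followed. Of 58 mitochondrial ribosomal protein genes 17 rose and none fell in both groups, of 45 cytosolic ones 8 rose and 1 fell, of 44 initiation and elongation factors 10 rose and 2 fell, and of 34 proteasome subunits 6 rose and 2 fell. The medians in NT-D and NT-LW were 0.40 and 0.69, 0.21 and 0.07, 0.41 and 0.33, and 0.36 and 0.46, against 0.45 and 0.19 for all genes. The NT-LW medians of mitochondrial ribosomal proteins and of proteasome subunits were the farthest above those of all genes. Median-ratio scaling turned the NT-D median of each of these 4 lists, and the NT-LW median of cytosolic ribosomal proteins, below 0, so no direction is given for the lists. MRPL38 had the largest shared rise of the mitochondrial ones, from 1.16 to 29.98 and from 1.42 to 17.1. RPL26L1, a copy of RPL26, fell from 1492 to 354 and from 1459 to 632, in NT-LW not under rescaling to a common sum. EIF3F, of the initiation complex, went from 13.8 to 90.3 and from 12.8 to 63.6, and IV-D had 59.7 and 57.1.

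Of 18 targets of p53 and genes of apoptosis 7 rose and none fell in both clone groups, where 16.7% and 4.91% of all genes did. The medians were 1.74 in NT-D, 0.96 in NT-LW and 0.05 in IV-D, against 0.45, 0.19 and -0.03 for all genes. CDKN1A, the cell cycle inhibitor p21, went from 0.875 to 33.2 in NT-D and from 6.45 to 33.5 in NT-LW, and was at 1.44 and 0.601 in IV-D. MDM2, the ubiquitin ligase of p53, went from 9.198 to 91.1 and from 18.9 to 97.6, against 10.3 and 16.4 in IV-D. The death receptor FAS went from 0.461 to 7.47 and from 1.30 to 9.88, against 0.383 and 0.746, and CCNG1, cyclin G1, from 42.3 to 144 and from 46.9 to 118, against 59.6 and 66.4. For these 4 genes both clone morulae were above the IV-D morula, and none of the 4 passed the rule in IV-D. These 4 were chosen from the list by their shared rises. Both clone morulae were above the IV-D morula for 34.8% of all shared risers and 48.1% of all genes compared. Of the 1264 shared risers, 744 did not pass the rule in IV-D either. Whether the 4 genes stand apart from other shared risers was not tested. In all, 2 genes of the list rose and 3 fell in IV-D embryos.

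Of 21 genes of the unfolded protein response 4 rose and none fell in both groups, a share near the 16.7% of all genes, with medians of 0.50, 0.48 and 0.14 against 0.45, 0.19 and -0.03. CALR, a chaperone of the endoplasmic reticulum, went from 17.1 to 78.6 and from 18.2 to 48.6, and ATF3, a stress factor, from 3.07 to 12.5 and from 4.56 to 13.3. PDIA3 and HERPUD1 also passed, but PDIA3 passed in neither group and HERPUD1 not in NT-LW under median-ratio scaling. Of 23 enzymes of DNA and histone lysine methylation 2 rose, a share below the 16.7% of all genes, and none fell in both groups (medians 0.98, 0.47 and 0.11). EHMT1, a methyltransferase of histone H3 lysine, went from 0.948 to 5.72 and from 0.877 to 3.62. KDM3A, a demethylase, went from 8.59 to 21.2 and from 12.4 to 27.3, in neither group past the rule under median-ratio scaling. In NT-D 11 of the 22 of these enzymes compared rose and in NT-LW 2 of 19, a difference that was not tested. Of all genes compared 31.6% rose in NT-D and 22.4% in NT-LW.

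**Figure D5:**
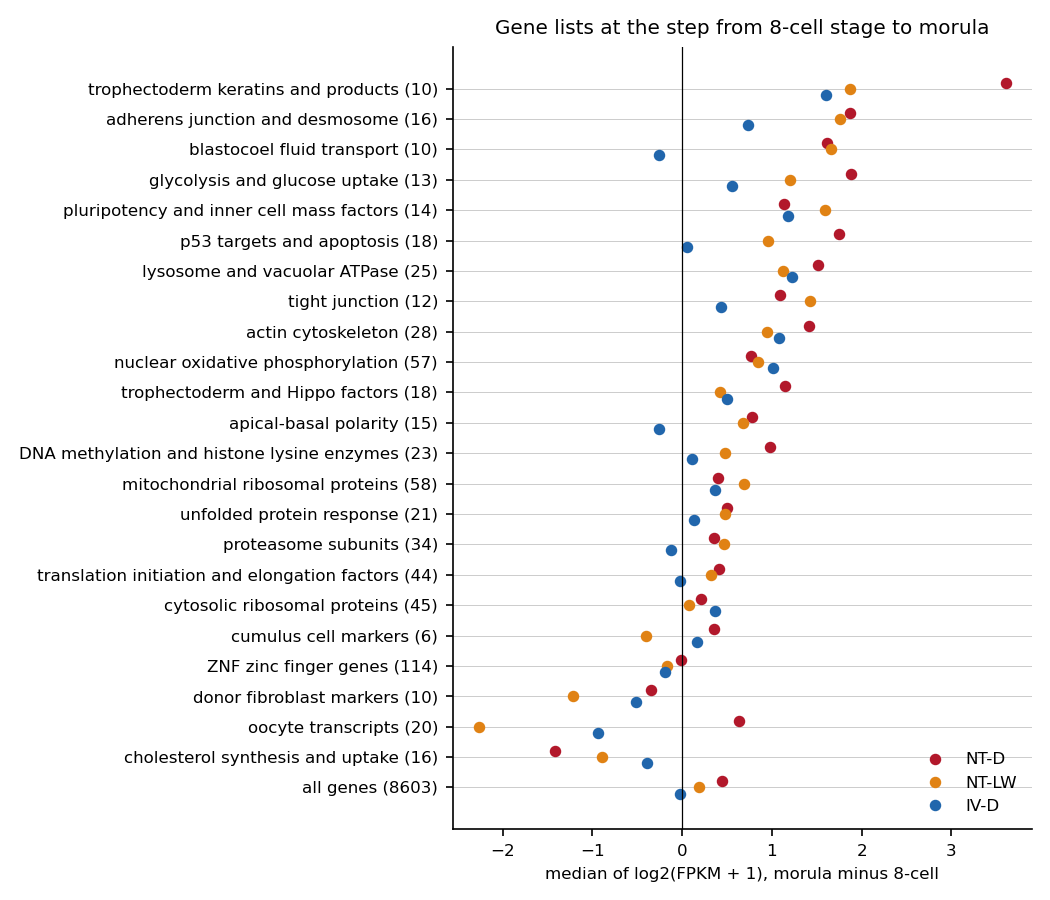
Median difference of log2(FPKM + 1), morula minus 8-cell, over the members of each of 23 gene lists and over all genes, in the 2 clone groups and IV-D; the number of genes in the table stands in brackets, and each point comes from 1 library per stage. Junction, keratin, glycolysis and p53 lists lie to the right of all genes in both clone groups, cholesterol synthesis to the left, and the oocyte list at 0.64 in NT-D and -2.26 in NT-LW.

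Of 16 genes of cholesterol synthesis and uptake none rose and 7 fell in both groups (4.91% of all genes fell in both). In NT-D none rose and 9 fell, while in NT-LW 4 rose and 8 fell, with medians of -1.41 in NT-D, -0.89 in NT-LW and -0.40 in IV-D, and their summed FPKM went from 834 to 194, from 839 to 308 and from 340.1 to 185. MSMO1, the sterol methyl oxidase, fell from 374 to 28.9 in NT-D, from 370.2 to 62.5 in NT-LW and from 77.4 to 23.6 in IV-D. HSD17B7, a sterol reductase, fell from 69.4 to 12.6, from 80.7 to 14.2 and from 18.7 to 7.38. SQLE, squalene epoxidase, fell from 29.4 to 6.05 and from 24.7 to 4.82, and CYP51A1, the sterol demethylase, from 7.73 to 1.23 and from 8.05 to 1.88. In IV-D these last 2 went from 6.20 to 2.71 and from 0.875 to 0.264 without passing the rule. For all 4 the 8-cell level was higher in both clone libraries than in IV-D, as it was for 81.2% of all shared fallers. The 4 were chosen by their shared falls.

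The largest shared falls included genes of germ cells. PSMA8, a proteasome subunit of germ cells, fell from 47.6 to 2.53 in NT-D, from 93.9 to 9.79 in NT-LW and from 41.7 to 1.89 in IV-D. SPATA22, of meiotic recombination, fell from 42.3 to 6.49, from 87.1 to 0.935 and from 209.9 to 10.3. FBXO8, an F-box protein, was abundant, with 985 and 79.5, 512 and 85.0, and 917 and 115 FPKM. ZP4, of the zona pellucida, fell from 100.4 to 18.7 and from 114 to 15.2 in the clones, against 5.77 and 2.56 in IV-D. The translation inhibitor PDCD4 fell from 64.3 to 8.96, from 59.8 to 7.42 and from 15.9 to 4.04. The other 10 of the 15 were ART3, MSMO1, CCSER1, PTMA, ACYP2, GSTM3, HSD17B7, FAM240B, ZC3H8 and RNF11, whose smaller clone difference ran from -2.98 in ART3 to -2.14 in RNF11.

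Of 114 zinc finger genes with ZNF symbols 11 fell and 3 rose in both groups, and their medians of -0.01 in NT-D and -0.17 in NT-LW lay below the 0.45 and 0.19 of all genes, and were 0.13 and 0.07 after rescaling to a common sum. ZNF565 fell from 25.9 to 2.79, from 31.9 to 7.90 and from 54.4 to 4.43, and ZNF483 from 21.1 to 4.07, from 34.7 to 9.41 and from 10.02 to 2.26. ZNF639 and ZNF277 fell as well, with differences of -1.60 and -1.28 in NT-LW.

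The shared fallers farthest from IV-D embryos were NEFL, ACYP2, ATP8, HBQ1, TBCA, MYZAP, DYNLL1 and CD58. ACYP2, an acylphosphatase, fell from 149 to 17.9 and from 76.8 to 13.4 in the clones, while IV-D stayed low at 3.49 and 4.14. TBCA, a tubulin chaperone, fell from 147 to 37.1 and from 245 to 106, in NT-LW not under rescaling to a common sum, against 28.5 and 45.8 in IV-D. NEFL, a neurofilament protein, fell from 20.8 to 6.94 and from 25.9 to 10.5 and rose from 6.71 to 24.4 in IV-D. The 5 shared fallers that rose in IV-D were NEFL, TPM2, ATP8, SLC19A2 and CCL2, the last 2 named after their values were seen. ATP8, a short gene of the mitochondrial genome, had 432 and 2 fragments in NT-D and 256 and 119 in NT-LW. In IV-D it had 126 and 284 FPKM, a different unit, so these clone and IV-D levels cannot be compared. ATP8 overlaps its neighbour ATP6, so its value is uncertain.

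Most genes of opposite direction were abundant in the recipient oocytes. Of the 136 genes 114 rose in NT-D and fell in NT-LW, and 100 of these (87.7%) had FPKM of at least 10 in the recipient oocytes, against 39.4% of all genes. Their median FPKM was 43.5 in the oocytes, 3.73 and 14.9 in NT-D 8-cell embryos and morulae, 8.70 and 1.86 in NT-LW, and 2.08 and 1.19 in IV-D. MAGI3, a scaffold of cell junctions, went from 14.2 to 63.7 in NT-D and from 43.2 to 8.28 in NT-LW. SPRED2, an inhibitor of Ras signalling, went from 5.88 to 39.8 and from 12.4 to 2.91, and SLC35F4, a solute carrier, from 2.70 to 13.7 and from 10.5 to 2.18. In the other direction were 22 genes with a median of 0.0656 FPKM in the oocytes. AMTN, amelotin, went from 107 to 12.3 in NT-D and from 0.0952, a single fragment, to 32.5 in NT-LW, while IV-D had 102 and 29.9. Without the genes of FPKM 10 or more in the oocytes 33 genes of opposite direction were left.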

How the data were processed

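Per the labels and the study's methods, cDNA was made with the SMART-Seq v4 kit, libraries with the NEBNext Ultra kit, reads were aligned with HISAT2 2.0.4 to Sscrofa11.1 and counted with HTSeq 0.9.1. The authors deposited FPKM of 8603 genes in 23 libraries. The label of the deposit calls these DEG genes, but by which comparisons they were chosen is not given in the sources used here. How reads matching several copies were counted is not given either. The files hold FPKM and not counts, but whole fragments were recovered for 8603 of 8603 genes (tolerance 0.01), which gave the depths, and the table took 94.5% to 95.8% of each depth in the 6 libraries used.

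With 1 library per condition no model could be fitted, and log2(FPKM + 1) of morula and 8-cell libraries was compared by the rule of size given above. A gene was compared in a group when FPKM was at least 1 at either stage. Fold intervals are 95% exact binomial intervals of the fragments. Named genes were the 15 largest shared changes in each direction (FPKM at least 10), the 10 highest late-activated genes, up to 4 members in each direction of each of 23 lists, 5 of opposite direction, and 8 in each direction farthest from IV-D. The members and lists were chosen with earlier results of these data known. Some genes that this rule names are not reported here. Promoters were read from the RefSeq genome of the same build, and 6854 genes of the table had a position there. Calculations used numpy 2.4.6 and pandas 2.3.3 under python 3.11.15, with intervals from scipy 1.17.1, figures from matplotlib 3.10.9 and sequences read by pysam 0.24.0. The recovery of depths and fragments, the rule of size in NT-D and the exact binomial test were tried on simulated data. Alternatives were the pseudocount, the minimum FPKM, the limit, both scalings, an exact binomial test of fragments and, chosen after seeing the data, leaving out genes of FPKM 10 or more in the recipient oocytes.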

Additional observations from a re-analysis of the deposited data

Results flagged for a closer look

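Between the clone groups, 114 genes were higher in the NT-D morula and lower in the NT-LW morula than at the 8-cell stage, and 22 changed the other way. The oocyte transcripts had a median change of 0.64 in NT-D and -2.26 in NT-LW. Single genes with opposite changes were AMTN (-3.02 in NT-D and 4.94 in NT-LW), KPNA7 (2.22 and -2.93), MAGI3 (2.09 and -2.25), SLC35F4 (1.99 and -1.86) and SPRED2 (2.57 and -1.78). Each group had 1 library per stage, so the difference between the groups was not tested.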

How the results depend on the processing

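No paired analysis was possible because each condition had 1 library, and for the same reason no replicate could be left out. No change past the limit changed its sign. List medians within the limit did so under median-ratio scaling for mitochondrial ribosomal proteins (-0.08), cytosolic ribosomal proteins (-0.27), proteasome subunits (-0.10), translation factors (-0.07) and cumulus markers (-0.10, and -0.81 with a minimum FPKM of 5) in NT-D and for cytosolic ribosomal proteins (-0.13) in NT-LW, and on rescaling to a common sum for ZNF genes (0.13 in NT-D and 0.07 in NT-LW). Of 84 alternative counts 58 stayed within 1.5 times the main count and 26 moved beyond it. With a limit of 2 on the log2 scale, 784 genes rose and 225 fell in NT-D, 507 and 189 in NT-LW, 348 and 39 in both, 86 and 12 in both and in IV-D, and 7 had opposite directions. Median-ratio scaling gave 1662 risers and 1576 fallers in NT-D and 598 shared fallers. The exact binomial test of fragments, which reads 2 libraries and not conditions, gave 1493 NT-LW fallers, 372 genes of opposite direction and 314 fallers in both and in IV-D. Without genes of FPKM 10 or more in the recipient oocytes, which leaves fewer genes, fallers numbered 438 in NT-D, 313 in NT-LW, 154 in both and 86 in both and in IV-D, and 33 genes had opposite directions. A pseudocount of 0.1 gave 265 of opposite direction, and a minimum FPKM of 5 gave 88. With FPKM over 2 or over 5 in the clone morulae, and earlier clone stages still under 1, 124 and 46 genes were late-activated in both clone groups. Of these, 77 and 30 had been over 1 FPKM, not over the higher limit, by the 8-cell stage in IV-D. Membership moved more than the counts: rescaling gave 142 late-activated genes, of which 100 were among the 209, and 92 by the 8-cell stage in IV-D, of which 52 were among the 122, and median-ratio scaling gave 178 (156 shared) and 103 (81 shared). Of 184 alternative list medians 12 came past the limit and 5 no longer passed it, and of 1083 alternative values of named genes 19 no longer passed it. For the moved counts other than those of fewer genes or a higher limit the cause was not tested. Genes under 3 fragments in a library cannot be told from 0 at this depth.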
